A study of Mus musculus with 8 samples.

Results

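Leaving the naive state of pluripotency was followed on 2 Agilent one-color expression arrays, 1 with total RNA from ES cells at 0 days in vitro (DIV) and 1 with total RNA from the epiblast-like aggregates (ELA) made from them at 2 DIV. They belong to a series of 8 arrays, in which total RNA and RNA immunoprecipitated with Argonaute (Ago–RNA) were measured at 4 stages of neural differentiation, from ES and ELA to neural progenitor cells (NPC, 6 DIV) and neural precursors (NPC/Neu, 10 DIV). The RNA on an array was a pool of 3 independent experiments, so 1 array stands for each condition and no spread between cultures could be computed. No p-value is given for any difference.

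Both groups were E14Tg2A cells, a mouse ES cell line of strain 129/Ola with no engineered allele named in the labels. ES cells grew on gelatin in medium with fetal calf serum and the cytokine LIF. For ELA, the cells were dissociated and left as floating aggregates on agar for 2 days in a chemically defined medium with N2 and B27 (without vitamin A), with neither serum nor LIF. The loss of serum, the loss of LIF, the new medium and the change from an attached to a floating culture thus came together, and their parts cannot be told apart. The measured RNA was bulk, in which fewer cells of a type and less RNA per cell cannot be told apart.

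Mouse ES cells in LIF resemble the naive epiblast of the blastocyst before implantation. LIF acts through its receptor and the transcription factor STAT3 on a circuit of factors (Klf4, Klf2, Esrrb, Tfcp2l1, Tbx3, Nanog) that hold this state, while Oct4 (Pou5f1) and Sox2 are shared by naive and primed cells. When the circuit is dismantled, cells pass to a state like the epiblast after implantation, known for Fgf5, Otx2, Pou3f1 and the de novo DNA methyltransferases, from which neural tissue forms unless other signals intervene.

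Of 36163 gene names on the array, 24491 had at least 1 probe well above background on 1 or both arrays and are called measured below. A level is the mean over these probes of the log2 signal after background correction and quantile normalization, and a change is the ELA level minus the ES level. Gained and lost mean a change of at least 1, or of at most -1, which is a 2-fold difference. These limits gave 1235 gained names (5.04% of those measured) and 1191 lost names (4.86%), while 90.1% of names changed by less than 1. The median change was 0.00 on this scale, with quartiles of -0.28 and 0.28. Past 2.5 there were 51 gained and 123 lost names. This order turned with the scanner software's processed signal, which gave 643 and 463 (75th percentile) or 699 and 566 (quantile). Probes printed in 10 spots gave a spot SD of 0.21 for a change, so the limit of 1 is well past the noise between spots, which says nothing of the noise between cultures. On the ES array 60.57% of the spots were well above background, and on the ELA array 55.11%, with median local backgrounds of 59 and 77. The part of this difference in the counts was not tested. Of the gained names, 357 were not well above background in ES, and of the lost names, 292 were not in ELA. For these a fold is a lower bound, written "at least".

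**Figure D1:**
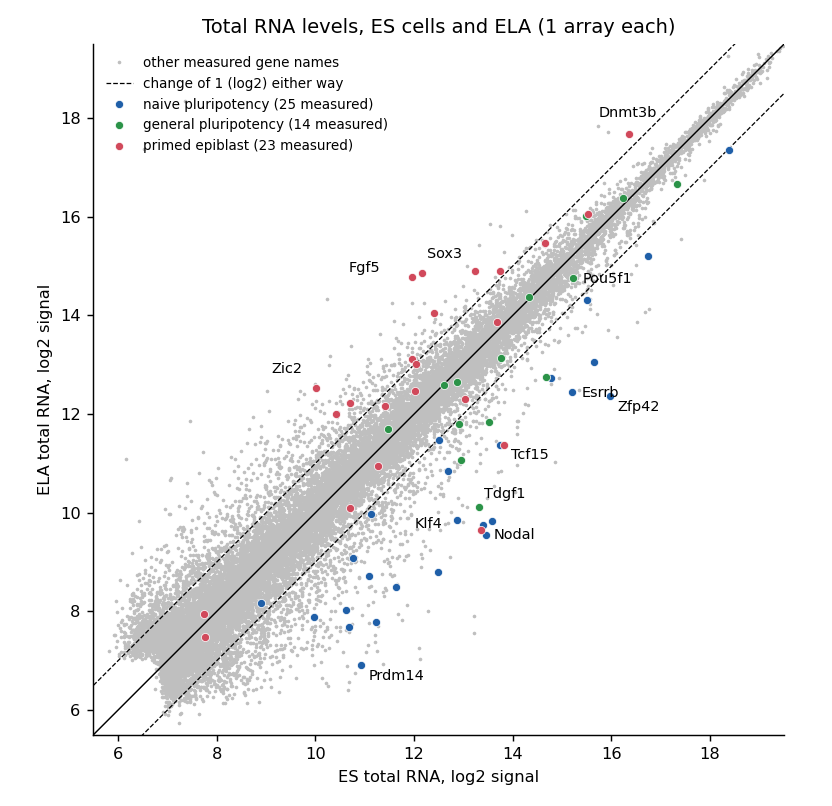
Log2 signal in ES total RNA (horizontal) against ELA total RNA (vertical) for 24491 measured gene names, 1 array each, with the naive, general and primed lists in color and dashed lines at a change of 1. The naive genes lie below the diagonal, 24 of 25 of them below the lower dashed line, and the primed genes lie on both sides, with Nodal and Tcf15 far below.

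The genes of naive pluripotency fell almost as a block. Of 25 listed members, all were measured and 24 fell, with a median change of -2.59 (range -4.02 to -0.73), where 4.86% of all measured names fell. The ES array held every one of them well above background. The list was drawn up with earlier results on these arrays known and is a description. Zfp42 (Rex1), a zinc finger protein used as a marker of naive cells, went from 15.97 in ES to 12.36 in ELA, a 12.2-fold drop. Esrrb, an orphan nuclear receptor that holds the circuit together, went from 15.19 to 12.45. Klf4, a LIF-responsive factor, went from 12.86 to 9.85, and its relatives Klf2 and Klf5 changed by -2.05 and -2.37. Nr0b1 (Dax1), a nuclear receptor corepressor, fell 14.9-fold, from 13.45 to 9.55. Tfcp2l1 (Tcfcp2l1 on the array), a direct target of STAT3, fell 12.8-fold with both of its probes. All of these stayed well above background in ELA at 2 DIV, so the RNAs were reduced and still detected.

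Prdm14, which represses FGF signaling and DNA methylation in naive cells, was the one member that left the detectable range, from 10.93 in ES to 6.91 in ELA, at least 15.6-fold lower. Tcl1 (-3.66), Morc1 (-3.74), Jam2 (-3.45), Nr5a2 (-3.13), Spic (-2.99) and Tet2 (-2.61) also fell by more than 2.5. Tbx3 changed by -2.36, Dppa3 (Stella) by -1.86, Sox15 by -2.09 and Fbxo15 by -2.59. The smallest calls were Tdh, a threonine dehydrogenase on which ES cells depend (-1.53), Fgf4 (-1.20), Gbx2 (-1.16), Nanog (-1.05) and Dppa5a (-1.02). Pecam1, an adhesion molecule, changed by -0.73 and was not called. The called naive genes thus differed among themselves in how far they had fallen by 2 DIV, from 2.03-fold (Dppa5a) to at least 15.6-fold (Prdm14). The only probe of Dppa5a also matches Dppa5b.

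Nanog needs its probes read one by one. Of 2 probes in the 3′ UTR, the one at chr6:122664590-122664649 (mm9) went from 15.30 to 12.89, a change of -2.40, and the one at chr6:122663676-122663735 went from 9.73 to 10.04, a change of 0.31. The gene value of -1.05 is their mean. Zfp57, which guards imprints, had 1 probe at -2.86 and 1 at -0.50. In both genes the choice of probe moved the value by more than any scaling tried, and which probe follows the mature transcript was not tested.

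The array reads each gene through probes of 60 bases, and 24 of the 34 probes for the naive genes lay wholly in a 3′ UTR. The following 3 naive genes are instead read inside their coding sequence by a single probe, whose letters are given in lower case, as the array design has them, to show what the values were measured on. The Klf5 and Morc1 probes join bases of the transcript that lie far apart in the genome. They map to chr14:99702656-99712388 (Klf5, plus strand), chr16:48624427-48627055 (Morc1, plus strand) and chr11:69469212-69469271 (Sox15, plus strand) of mm9.
Klf5: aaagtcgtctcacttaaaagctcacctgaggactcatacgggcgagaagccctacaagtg
Morc1: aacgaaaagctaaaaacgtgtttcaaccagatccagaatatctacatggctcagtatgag
Sox15: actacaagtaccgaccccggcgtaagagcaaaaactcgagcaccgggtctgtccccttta
Signal at the Klf5 probe went from 13.75 in ES to 11.37 in ELA, at the Morc1 probe from 13.57 to 9.83, and at the Sox15 probe from 9.97 to 7.89. The loss was thus read in the coding part of these transcripts as well as in UTRs of others. Of the 34 probes, 6 in all were coding and 1 spanned coding sequence and UTR. Another 3 had no full match in coding transcripts, among them the only probes of Zfp42 and Dppa3.

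Genes shared by naive and primed pluripotency moved less. Of 14 measured members, 5 fell, 0 rose and 9 did neither, with a median of -0.54, where 4.86% of all measured names fell. Pou5f1 went from 15.21 to 14.76 (-0.45) and Sox2 from 13.75 to 13.13 (-0.63). Utf1 (0.14), Foxd3 (-0.01), Zfp281 (0.04), Sall4 (0.23), Trim71 (-0.22), Lin28a (0.51) and L1td1 (-0.68) also lay within the limit. Among the 5 that fell were Tdgf1 (Cripto), a coreceptor of Nodal (-3.20), the paired Dppa2 (-1.87) and Dppa4 (-1.10), and Gdf3 (-1.68), a TGF-beta family ligand. In Tdgf1 the 3 probes disagreed in size. They changed by -4.58, -4.23 and -0.80, and the last is the only one with a full match to a coding transcript of the annotation. The call for Tdgf1 therefore rests on the first 2.

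The primed epiblast list was mixed. Of 24 members 23 were measured, 10 rose, 2 fell and 11 did neither, with a median of 0.82, where 5.04% of all measured names rose. Fgf5, the usual marker of the epiblast after implantation, went from 11.96 in ES to 14.78 in ELA, a 7.03-fold rise. Sox3, a relative of Sox2, went from 12.17 to 14.85, and Zic2, a zinc finger factor, from 10.01 to 12.52. Sall2 (1.66), the kinase Pim2 (1.66), Sox11 (1.60), the methyltransferases Dnmt3a (1.53) and Dnmt3b (1.32), Tead2 (1.15) and Lef1 (1.15) made up the rest of the 10. Sox4 (0.97), Pou3f1 (0.82), Cdh2 (0.75) and Otx2 (0.53) changed by less than 1. Otx2 and Pou3f1 were already well above background in ES, at 15.53 and 14.65.

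The 2 members that fell were Nodal and Tcf15. Nodal, the ligand that keeps the epiblast from turning neural, went from 13.36 to 9.66, a 13.0-fold drop, and Tcf15, a helix-loop-helix factor linked to the start of priming, from 13.82 to 11.38. Fgf15 (-0.61), Fgf8 (-0.28), Etv4 (-0.73), Grhl2 (-0.31), Enpp3 (0.20), Cldn6 (0.45) and Wnt8a (0.20) stayed within the limit. The Fgf8 value is the mean of 3 probes that disagreed, at -1.59, -0.03 and 0.77. Only 1 of them was above background in ELA. Eomes, a T-box factor of the early epiblast and mesendoderm, changed by 0.70 (8.60 to 9.29), with both probes at 0.65 and 0.74. This was past the noise between spots and under the limit.

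**Figure D2:**
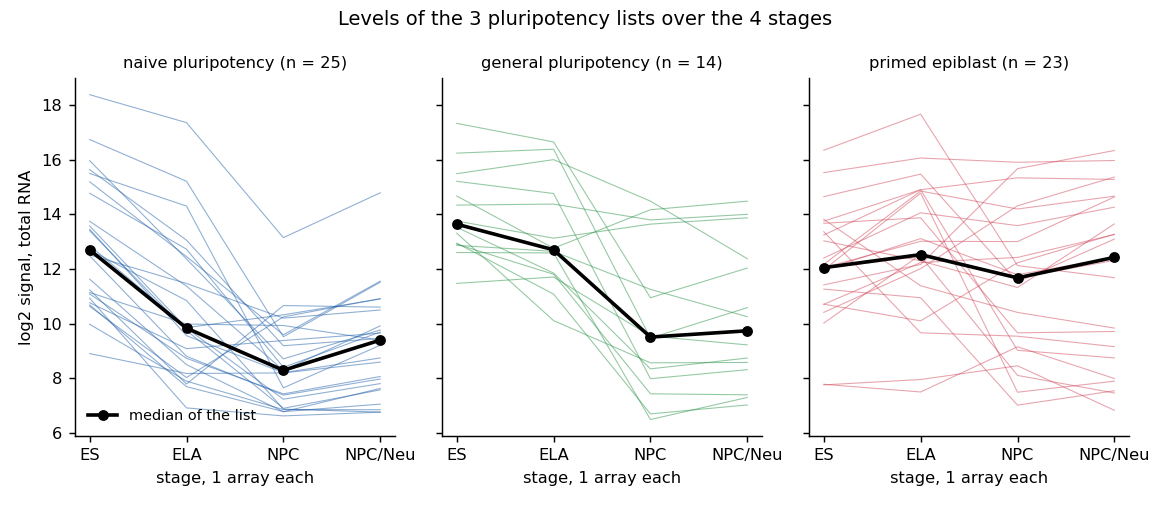
Log2 signal in total RNA at ES, ELA, NPC and NPC/Neu (1 array each) for each measured member of the naive (25), general (14) and primed (23) lists, with the median of each list in black. The naive median drops from 12.70 in ES to 9.83 in ELA, the general median is 13.64 in ES, 12.70 in ELA and 9.50 in NPC, and the primed median stays between 11.67 and 12.52.

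The arrays of the later stages place these levels in time. The naive median, at 12.70 in ES and 9.83 in ELA, was 8.29 on the NPC array and 9.39 on the NPC/Neu array. The general median stood at 13.64, 12.70, 9.50 and 9.73 in the order of the stages. Pou5f1 was at 7.98 in NPC and Foxd3 at 6.48, against 14.76 and 12.59 in ELA, while Sox2 stood at 13.64 in NPC. Fgf5 was at 7.48 in NPC, below its ES level, and of the 4 stages it was highest in ELA. Pim2 (9.02 in NPC) and Dnmt3b (12.12) were likewise lower in NPC than in ES, whereas Sox11 (14.31) and Tead2 (15.34) stood above their ELA level and Sox3, at 14.20, above its ES level. These levels are given side by side and were not tested.

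Of the signaling lists, those of LIF and STAT3 and of Nodal and BMP held mostly falls among the members past the limit. Of 13 measured genes of LIF and STAT3 signaling, 7 fell and 1 rose, with a median of -1.10. Of all measured names 4.86% fell and 5.04% rose. Socs3, the feedback inhibitor that STAT3 switches on, went from 13.76 to 10.85, a 7.53-fold drop. Bcl3, a cofactor of NF-kB and a STAT3 target, fell 12.4-fold, from 14.05 to 10.42. The receptor Lifr (-1.81), Stat3 itself (-1.52) and the kinases Pim3 (-1.40) and Pim1 (-1.10) were also among the 7. The shared receptor chain Il6st changed by -0.77 and Jak1 by 0.24. The ligand gene Lif changed by 0.98, and Fos rose by 2.28. Stat3 was read by 2 probes in different parts of the transcript, with changes of -1.48 and -1.56.

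Genes of Nodal and BMP signaling fell as well. Of 19 measured, 11 fell and 0 rose, with a median of -1.11, where 4.86% of all measured names fell. Beside Nodal and Tdgf1, the Nodal targets and inhibitors Lefty1 (11.86 to 8.13, 13.3-fold lower) and Lefty2 (11.85 to 9.43) fell, as did the inhibitory Smad7 (-2.85). The Id genes encode dominant inhibitors of helix-loop-helix factors and are classic targets of BMP. Id1 went from 14.85 to 11.02, a 14.2-fold drop, Id2 from 13.70 to 10.83, and Id4 was at least 3.73-fold lower, while Id3 changed by 0.27. Bmp4 (-1.11), Gdf3 (-1.68) and Pmepa1 (at least 1.76-fold lower) were the other members past the limit. Bmp4 was read by 1 of its 2 probes, as the other was not above background on either array. The receptor gene Acvr2b changed by 1.00, just under it.

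Wnt and FGF genes went both ways. Of 19 measured Wnt genes, 5 rose and 4 fell (median 0.32), where 5.04% of all measured names rose and 4.86% fell. Sp5, a direct target of beta-catenin, went from 10.81 to 6.74 and below the background criterion, at least 14.4-fold lower, and Fzd10 (-1.48), Wnt3 and Cdx1 (-1.07) fell as well. The receptors Fzd1 (1.48), Fzd2 (1.29) and Fzd7 (1.25), the secreted inhibitor Sfrp1 (1.25) and Lef1 rose. Sp5 stood at 13.00 in NPC, so the stage at which it was not well above background lay between 2 at which it was. Among 20 FGF and ERK genes, 3 rose (Fgf5, Egr1 by 1.49 and the phosphatase Dusp4 by 1.08) and 3 fell (Fgf4, Spry4 by 1.18 and Phlda1 by 1.34), with a median of -0.10.

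**Figure D3:**
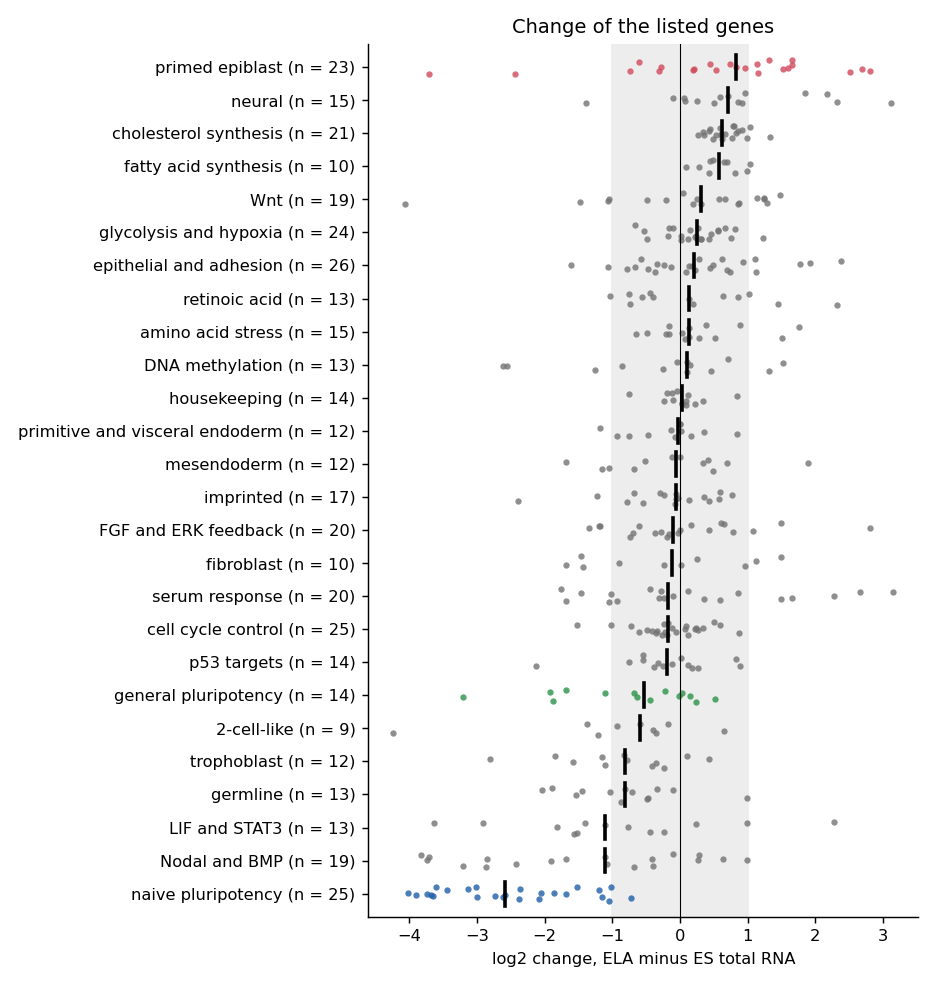
Change (ELA minus ES, log2, 1 array each) of every measured member of 26 gene lists, ordered by the median, which is the black bar; the gray band holds changes under 1. Naive pluripotency lies lowest with a median of -2.59, followed by Nodal and BMP (-1.11) and LIF and STAT3 (-1.10), while all 21 cholesterol genes lie right of 0.

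Genes known for their response to serum went both ways. Of 20 measured, 5 rose, 5 fell and 10 did neither, where 5.04% of all measured names rose and 4.86% fell. Those that rose were the immediate early factors Egr2 (7.65 to 10.81, 8.92-fold), Fosb (7.91 to 10.57), Fos (8.55 to 10.83), Jun (12.63 to 14.28) and Egr1 (12.21 to 13.70). Those that fell were the smooth muscle genes Tagln (15.70 to 14.02) and Acta2 (12.70 to 11.24), the matrix proteins Thbs1 (-1.75) and Ctgf (-1.05), and Ankrd1 (-1.02). The immediate early genes Junb (-0.44) and Ier2 (-0.11) and the contractile genes Cnn1 (0.59) and Actg2 (-0.30) did not pass the limit. Egr4, looked up after these values were seen, rose as well, from 8.89 to 11.54, so that all 3 measured members of the Egr family were gained.

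Neural genes were only beginning to move. Of 15 measured, 4 rose and 1 fell, where 5.04% of all measured names rose and 4.86% fell. In all, 13 of the 15 had a change above 0. Fabp7, a fatty acid binding protein of radial glia, went from 6.96 to 10.07, the Notch effector Hes5 from 8.97 to 11.30, the LIM factor Lhx2 from 7.47 to 9.65 and Zfp521, which drives ES cells toward neural fate, from 7.44 to 9.29. In NPC these stood at 15.46, 16.28, 12.80 and 12.49. Zfp521 was read by 1 of its 2 probes, as the other (0.61) was not above background in ES or ELA. Sox1 (0.07) and Pax6 (-0.10), which define neural progenitors, did not reach the limit, and Neurog2, Otx1 and Pou3f2 were not above background on either array. Hes3 fell, by 1.38. Retinoic acid genes showed Crabp2, a carrier of retinoic acid (13.53 to 15.85), Stra6 (1.45) and Dhrs3 (1.02) among the gained, and Stra8 (-1.03) among the lost, of 13 measured.

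Few markers of other cell types rose, but few of all measured names rose as well (5.04%, with 4.86% that fell). In mesendoderm, 1 of 12 measured rose (Foxa2, 7.01 to 8.90) and 3 fell, while T changed by less than 0.01 and Mixl1, Mesp1, Cer1 and Cxcr4 were not above background. Foxa2 was read by 1 of its 2 probes, as the other (0.61) was not above background on either array. In primitive and visceral endoderm, 0 of 12 rose, 1 fell (Sox7), and Gata6, Afp, Ttr, Apoa1, Pdgfra and Hnf4a were not above background. The log2 of the summed signal of the endoderm list was 15.81 in ES and 15.39 in ELA. In trophoblast 5 of 12 fell and 0 rose. They were Tfap2c (Tcfap2c on the array, -2.81), Tead4 (-1.84), Bmp4, and Gata3 and Hand1, which were not well above background in ELA. Among fibroblast markers Thy1 (1.50) and Twist1 (1.13) rose, Tagln, Acta2 and S100a4 (-1.44) fell, and Lum and Postn were not above background. The summed fibroblast signal was 16.05 in ES and 15.19 in ELA. It leans on its highest member, Tagln, at 15.70 and 14.02, which is also in the serum response list. No feeder cells are named in the labels. The part of other cells in these values was not tested.

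Among genes known from rare 2-cell-like cells and from the germline, some fell and 0 rose. Of all measured names 4.86% fell and 5.04% rose. Zscan4f, a zinc finger protein of the 2-cell embryo that flickers on in single ES cells, went from 10.65 to 6.42, at least 12.9-fold lower, and Zscan4c (-1.38) and Zfp352 (-1.20) fell too, 3 of 9 measured, while Arg2 changed by 0.65. The Zscan4 genes are near-identical copies whose probes can share signal, so their values are uncertain one by one. In the germline list 5 of 13 fell (Rhox6 by 2.04, Rhox9 by 1.89, Sycp1 by 1.54, Tex101 by 1.45 and Stra8) and 0 rose, with Sycp3 at 12.43 and 13.43, a change of 1.00 that stopped just short of the limit. Of imprinted genes, 2 of 17 fell, Phlda2 (-2.39) and Peg10 (-1.22). Of 13 measured genes of DNA methylation, 2 rose, 3 fell and 8 did neither (median 0.10). The writers Dnmt3a and Dnmt3b rose, while Dnmt3l, their cofactor without catalytic activity, fell 5.86-fold (16.12 to 13.57), and the hydroxylases Tet1 (-1.26) and Tet2 (-2.61) fell. The maintenance enzyme Dnmt1 changed by 0.10 and the hydroxylase Tet3 by 0.11.

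Genes of lipid synthesis had changes above 0, most of them short of the limit. All 21 measured genes of cholesterol synthesis and uptake had a change above 0 (lowest 0.27, median 0.62), with 2 past the limit, among them Sc4mol, a sterol demethylase (14.33 to 15.37). Among 12476 names with a mean level of 9.5 or more, 51.2% had a change above 0 and 23.8% had one of 0.27 or more, with a median of 0.01. Hmgcs1, which makes the precursor HMG-CoA, went from 15.26 to 16.13, and the sensor Insig1 from 10.09 to 10.92. The 10 genes of fatty acid synthesis were also all above 0 (lowest 0.09, median 0.57), with Fads1 (1.04) past the limit. In Ago–RNA, the median change was 0.42 for the cholesterol genes and -0.11 for the fatty acid genes.

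Because the cholesterol genes moved together, their promoters were read for 4 short motifs in the 250 bases before the start (RefSeq, GRCm38.p6, both strands, any promoter of a gene counted). Of 21 genes 13 had an entry. All 13 held CCAAT, the CCAAT box, which 37.5% of 27025 symbols hold. TCACNCCAC, a form of the sterol regulatory element, was in 1 of 13 (Hmgcs1) and in 1.23% of all symbols. CACGTG was in 3 of 13 and in 6.86% of all, and TTCCNGGAA in 0 of 13 and in 1.09% of all. In other lists, the CCAAT box was in 3 of 7 fatty acid genes, 5 of 15 naive genes and 7 of 13 LIF and STAT3 genes. Whether the box bears on the changes was not tested. Genes with several promoters have more chances to hold a motif. The last 150 bases before the start are shown for 3 genes, with the matched letters in capitals (CCAAT, or ATTGG where it lies on the other strand, and the sterol element in Hmgcs1), at chr13:119690201-119690350 (Hmgcs1), chr5:114444119-114444268 (Mvk) and chrX:72918371-72918520 (Nsdhl), all on the plus strand. No 2 matches overlap.
Hmgcs1: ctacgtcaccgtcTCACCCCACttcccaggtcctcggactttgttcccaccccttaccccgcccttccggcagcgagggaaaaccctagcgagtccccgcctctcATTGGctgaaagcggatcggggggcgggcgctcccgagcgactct
Mvk: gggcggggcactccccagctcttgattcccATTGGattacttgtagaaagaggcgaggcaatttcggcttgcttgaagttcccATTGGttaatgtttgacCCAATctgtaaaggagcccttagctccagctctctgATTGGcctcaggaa
Nsdhl: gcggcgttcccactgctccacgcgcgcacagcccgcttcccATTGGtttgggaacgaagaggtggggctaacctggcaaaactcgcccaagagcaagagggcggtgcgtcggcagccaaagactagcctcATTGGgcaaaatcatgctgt
The Mvk stretch holds 4 matches to the CCAAT box and the Nsdhl stretch 2. These 3 stretches are examples, and Mvk had the most matches of the 13 genes. In the same 150 bases, Insig1 and some promoters of Dhcr7 and Pmvk held none. The changes of the 3 genes were 0.86 (Hmgcs1), 1.00 (Mvk) and 0.45 (Nsdhl). A match is a run of letters and no evidence of binding.

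Of the other metabolic, stress and growth lists, few genes passed the limit, as among all measured names, of which 5.04% rose and 4.86% fell. In glycolysis and hypoxia 1 of 24 rose (Egln3, 1.22), and in amino acid stress 2 of 15 (Ddit3, 1.75, and Chac1, 1.50). Of p53 targets, 1 of 14 fell (Perp, -2.12). Among 25 cell cycle genes, Myc (11.71 to 10.18) and Mycn (15.48 to 14.46) fell and 0 rose. Adhesion genes moved at both ends of the epithelial scale. Of 26 measured, the tight junction gene Cldn3 (1.93) rose beside the repressors of E-cadherin Zeb2 (6.94 to 9.32), Snai1 (1.78), Snai2 (1.11) and Twist1. Krt19 (-1.60) and Fn1 (-1.06) fell, and E-cadherin itself (Cdh1) did not pass the limit. Zeb2 was read by 1 of its 2 probes, as the other (0.27) was not above background on either array. Of 14 housekeeping genes none passed the limit (median 0.03), with Tfrc lowest at -0.76.

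**Figure D4:**
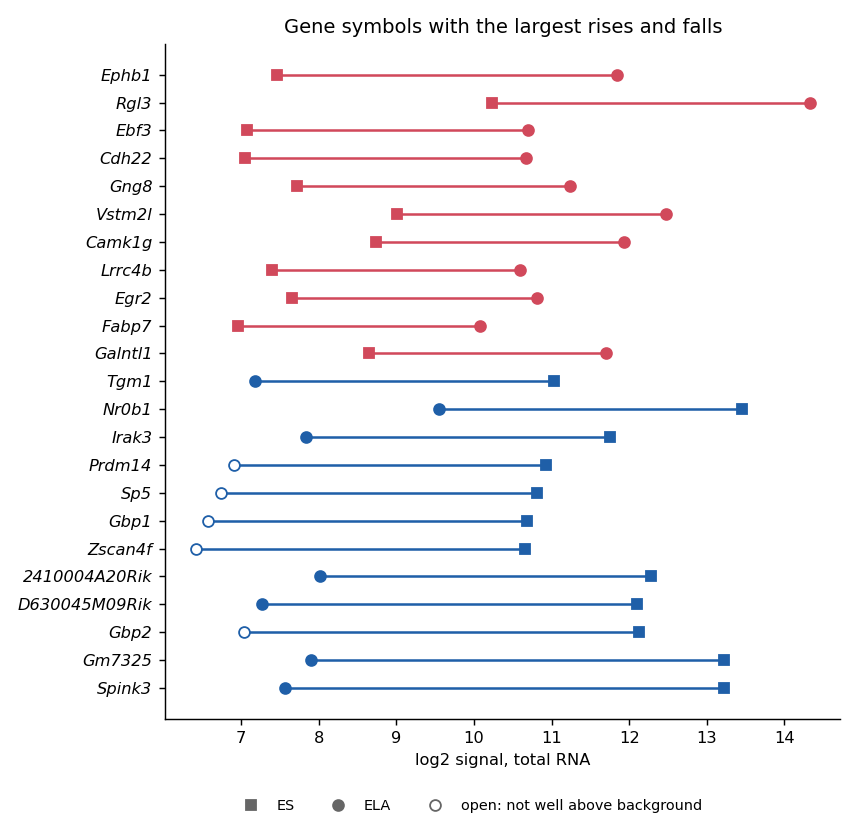
Log2 signal in total RNA of 11 of the 12 gene symbols with the largest rise (red) and of the 12 with the largest fall (blue), ES as squares and ELA as circles, 1 array each; open symbols were not well above background. Ephb1 rises from 7.46 to 11.85, and Spink3 falls from 13.22 to 7.57.

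Few of the largest single rises were members of the lists. Among symbols whose every probe was well above background on the brighter array and changed by 1 or more the same way, the 12 largest rises were all of 3.05 or more. Among them, Ephb1, a receptor of ephrin-B guidance ligands, went from 7.46 to 11.85 (20.9-fold) and Rgl3, an effector of Ras family GTPases, from 10.24 to 14.33 (17.0-fold). Ebf3, a factor of early neurons (12.3-fold higher), the cadherin Cdh22 (7.05 to 10.67), the G protein gamma subunit Gng8 (7.72 to 11.23), Vstm2l (9.01 to 12.48), the calcium-dependent kinase Camk1g (8.73 to 11.93), the synaptic adhesion protein Lrrc4b (7.40 to 10.60, 2 probes), Egr2, Fabp7 and Galntl1, a glycosyltransferase (8.65 to 11.71), were also among the 12. Gng8 was read inside its coding sequence at chr7:17480598-17480657 (mm9, plus strand), by the probe given here as the example of a rise measured on coding letters.
Gng8: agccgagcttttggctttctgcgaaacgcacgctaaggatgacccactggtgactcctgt

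Their later levels differed. Ebf3, Cdh22, Camk1g, Lrrc4b, Fabp7 and Galntl1 stood higher in NPC than in ELA (12.13, 13.32, 13.66, 13.92, 15.46 and 13.56), whereas Ephb1 (10.39), Rgl3 (12.87), Gng8 (8.79) and Vstm2l (9.63) stood lower. Egr2 was also higher in NPC, at 11.14, and at 8.05 in NPC/Neu. So 7 of the 12 stood higher still at the neural progenitor stage, while Gng8 and Vstm2l came back toward the 7.72 and 9.01 of ES cells.

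The largest falls held few factors of the naive circuit. Spink3, a secreted protease inhibitor, went from 13.22 to 7.57 (50.1-fold lower) and Gm7325, the fusogen also known as myomixer, from 13.22 to 7.90 (40.0-fold). Gbp2 and Gbp1, interferon-inducible GTPases, were at least 34.0-fold and at least 13.2-fold lower. D630045M09Rik (12.10 to 7.26), 2410004A20Rik (12.28 to 8.02), Irak3, which restrains innate immune signaling (11.76 to 7.83), and Tgm1, a transglutaminase of surface epithelia (11.03 to 7.18), fell beside Zscan4f, Sp5, Prdm14 and Nr0b1. None but Prdm14 and Nr0b1 of these 12 is in the naive list. Looked up after these values were seen, the Gbp family had 8 measured members, of which 6 fell and 0 rose (median -2.30). Of all measured names 4.86% fell. The 6 include Gbp1 and Gbp2, which prompted the look-up. Gbp3 was at least 9.50-fold lower and Gbp4 went from 10.21 to 7.22. The tripartite motif genes Triml1 and Triml2 also fell, from 12.73 to 9.11 and from 14.08 to 10.98.

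Intergenic transcripts, named on the array by a range of the genome, were also gained and lost. Of 3429 measured, 103 rose (3.00%) and 126 fell (3.67%), against 5.04% and 4.86% of all names. The largest falls that met the same rule lay close to each other. The transcript named for chr4:146017200-146029700 went from 11.06 to 7.32 over 4 probes, that for chr4:146889650-146904300 from 10.29 to 7.48 over 4 probes, and that for chr4:146965675-146979325 from 10.13 to 7.31 over 2 probes (mm9, F strand in the name). Looked up afterwards, 28 intergenic names between 145000941 and 147183949 on chromosome 4 were measured, of which 10 fell and 0 rose (median -0.87). The transcripts that prompted this look-up are among the 10, and some of the names share or overlap a range, so the count is a description. Whether the probes of these names match more than 1 locus was not tested. The other 2 of the 5 largest falls were at chr4:127020290-127020504 (at least 3.81-fold lower) and chr8:119092623-119094219 (13.25 to 10.84). The largest rises were smaller, led by chr10:92238941-92283837 (at least 3.02-fold higher) and chr17:88225376-88238756 (9.62 to 11.35). The only probe of the chromosome 10 name matches the coding sequence of 4930485B16Rik, so that its rise was not read on intergenic letters. A pair on chromosome 3, at chr3:51890691-51891781 and chr3:51804655-51805883, rose over 3 probes each (1.68 and 1.59) and stood higher again in NPC/Neu, at 12.49 and 11.36.

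**Figure D5:**
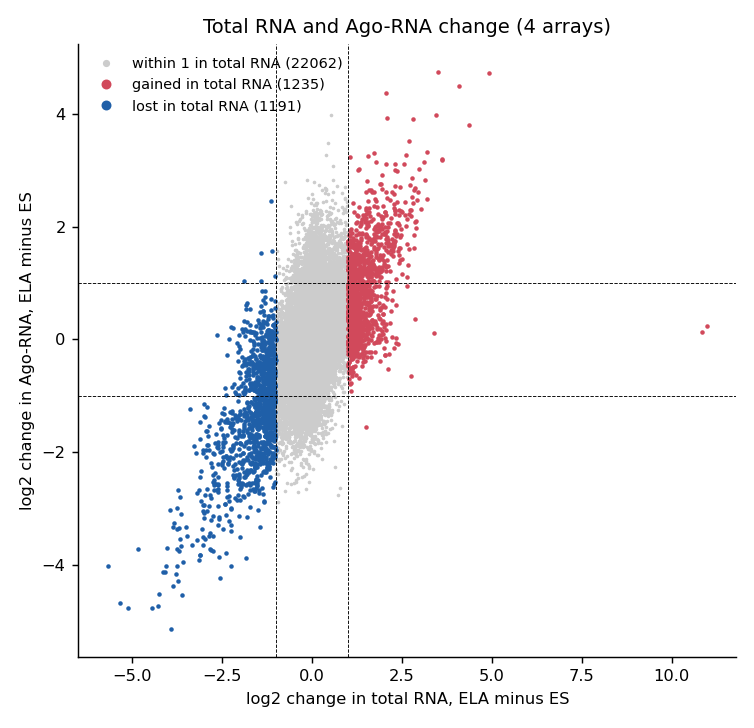
Change in total RNA (horizontal, ELA minus ES, log2) against change in Ago–RNA on 2 other arrays (vertical) for names gained (red), lost (blue) or within 1 (gray) in total RNA, with dashed lines at 1 and -1. Gained names lie mostly above 0 and lost names mostly below it, and the 2 red points near 11 on the horizontal axis are single spots with Ago–RNA changes near 0.

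Ago–RNA from the same 2 stages was hybridized to arrays of its own. These arrays entered the calls only through the quantile normalization over all 8 arrays. Ago–RNA is a different fraction, the RNA bound to Argonaute in the cytosol, and not a repeat of total RNA. Of the 1235 gained names, 525 (42.5%) rose by 1 or more in Ago–RNA and 1 fell by as much, where 9.36% of measured names rose. Of the 1191 lost names, 734 (61.6%) fell by 1 or more and 6 rose, where 9.1% fell. The median Ago–RNA change was 0.82 for gained and -1.31 for lost names. The naive list had a median of -2.60 in Ago–RNA, with Nr0b1 at -5.14, Zfp42 at -4.54 and Klf5 at -3.79. Fgf5 rose by 3.92. Dnmt3b was an exception, with 1.32 in total RNA and -0.69 in Ago–RNA.

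Within the arrays, the agreement between probes limits single values. Of 468 gained or lost names with 2 or more probes, 271 had every probe past the limit in the same direction and 18 had a probe of opposite sign. In 10 names, probes passed the limit in opposite directions. The widest were Gm7167 (1.63 and -1.58) and 2 intergenic names, chr3:106858397-106896812 (1.58 and -1.35) and chr6:82608223-82669023 (1.58 and -1.34). The 2 highest changes of all, 10.97 for 4933407C09Rik and 10.84 for a probe without a gene name, each came from a single spot of the ELA total RNA array, at 18.34 and 17.36, with the same probe at or below 7.36 and 6.52 on the other 7 arrays. They count among the gained and support no gene call.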

How the data were processed

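Per the file headers, the deposited files hold spot intensity from Feature Extraction 10.7.3.1 (the labels name version 9.1). The authors deposited mean, local background and processed intensity, with no scaling between arrays. The labels state 50 ng of RNA per labeling, and the study's methods a larger amount.

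For all 8 arrays, on 1 slide, the normexp model of limma 3.58.1 (R 4.3.3) was applied to mean and background intensity, with an offset of 50. Control spots and between 125 and 523 outlier spots per array were set aside before log2 signals were quantile normalized and averaged by probe. A probe was used if at least 0.5 of its spots were well above background on the ES or ELA array. Each array held 62976 spots, and 59305 of them carried 55681 probes. The number of arrays limits the precision. Probes were placed on GENCODE vM1 coding transcripts, of the same build (mm9) as the array annotation. Quantile normalization removes any difference in total RNA yield between arrays. Python 3.11.15, numpy 2.4.6, pandas 2.3.3 and matplotlib 3.10.9 were used.

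Genes were named by rule: the 12 largest rises and falls among symbols, every member of the naive, general and primed lists, members past a change of 1 in the other lists (or the extremes), the markers the study names, 5 intergenic transcripts each way and the 3 widest disagreements between probes. The members, lists and limits were chosen with earlier results of these data known. The fold limits of 1 and 2.5 are those of the study. For ES against ELA the study also set limits on the corrected p-value and on mean expression, which were not applied here. Genes outside the rule are named as values below the limit, as absent markers, or as looked up after values were seen. Changes added to normalized ES levels, with noise of the spot SD, were recovered. This checks the averaging and counting only. It does not exercise background correction, normalization, dim genes or noise between cultures. The alternatives tried were other offsets, scalings, filters on dim probes, probe summaries, the processed intensity and outlier spots kept. Some genes that the rule names, and 1 probe sequence, are not reported here.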

Additional observations from a re-analysis of the deposited data

How the results depend on the processing

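Across 10 alternatives, no called change of the 177 named genes turned its direction. Of 150 gained or lost named genes, 133 kept the call wherever a value was given and 17 lost it in at least 1 setting, most of them with changes just past the limit. The largest of the 17 were Tdgf1 (-3.20, and -0.80 with the brightest probe) and Zfp57 (-1.68, and -0.50 likewise), whose probes disagree. The naive list had 23 of 25 members lost with the brightest probe, 23 of 24 with probes above background on both arrays, and 24 of 25 in the other settings. All 21 cholesterol genes stayed above 0 in every setting.

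Counts moved most with the scanner's processed signal. The processed signal gave 2287 gained and 2591 lost names scaled to the 75th percentile, and 2455 and 2652 with quantile normalization, against 1235 and 1191. In the other settings the gained ran from 886 to 1640 and the lost from 917 to 1566. Past 2.5, losses outnumbered gains in every setting but those of the processed signal, which gave 643 gained and 463 lost, and 699 and 566. With the 75th percentile of normexp signals 58.1% of calls were gains, against 50.9%.

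Medians of some lists moved by more than the spot SD. With the processed signal at the 75th percentile they were -2.93 (naive), 1.13 (neural), -1.43 (2-cell-like), -0.36 (fibroblast), -2.53 (Nodal and BMP) and 0.66 (Wnt), and with quantile normalization of that signal 1.25 (neural), -1.58 (2-cell-like), -0.36 (fibroblast), -2.56 (Nodal and BMP) and 0.67 (Wnt). An offset of 16 gave -0.88 (2-cell-like) and -1.41 (Nodal and BMP). Probes above background on both arrays gave 0.19 (mesendoderm, -0.06 as reported), -0.28 (2-cell-like), -1.40 (Nodal and BMP) and 0.66 (Wnt), and no filter on dim probes gave 0.48 (neural), -0.55 (trophoblast), -0.38 (2-cell-like) and -0.88 (Nodal and BMP). The cause was not tested.

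No paired analysis was possible because each condition has 1 array, which also leaves no replicate to leave out. Signal over background limits dim genes: 11672 names were not above background on either array, and a loss among them was not detectable.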

Other observations

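Some families were looked up because members stood among the named genes, so their counts are descriptions. Over all measured names, 5.04% rose and 4.86% fell. Of 17 measured Klf genes, 4 fell and 3 rose. Beside Klf2, Klf4 and Klf5, Klf9 went from 14.02 to 12.96, while Klf15 went from 9.20 to 10.52, Klf13 from 11.23 to 12.25, and Klf14 was at least 2.04-fold higher. Of 17 measured Rhox genes, a homeobox cluster on the X chromosome, 4 fell (Rhox6, Rhox9, Rhox10 and Rhox13) and 1 rose, Rhox3a, from 7.44 to 9.01. Rhox5, the founding member, went from 15.74 to 15.03. Among 5 measured Ephb receptors, Ephb1 and Ephb4 rose (Ephb4 from 10.76 to 11.88) and Ephb2, Ephb3 and Ephb6 changed by 0.03, 0.25 and 0.54. Of 16 measured Sox genes 4 rose and 2 fell, with a median of 0.05.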
